A study of Rattus norvegicus and Bos taurus with 6 samples.

Results

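The platelet-derived growth factor (PDGF) ligands Pdgfa, Pdgfb, Pdgfc and Pdgfd, their receptors Pdgfra and Pdgfrb and the receptor-like gene Pdgfrl were examined by single-nucleus RNA-seq in adipose tissue of rats and cattle. The 7 members were matched by symbol, in any case, and were found in every one of the 6 libraries, among 25409 genes of the 10x Genomics library, 38488 genes of each rat Parse library and 34456 genes of the cow library. The rat tissues came from male Dahl SS rats (strain SS/HsdMcwiCrl) and were mesenteric perivascular adipose tissue (mesPVAT), retroperitoneal (RP) fat, thoracic aortic perivascular adipose tissue (taPVAT) and subscapular brown adipose tissue (BAT). The cow tissue was subcutaneous white adipose tissue (WAT) of the flank of female Holstein cattle in lactation. mesPVAT was prepared with 10x Genomics 3′ chemistry (batch 1 in the labels) and again with the Parse Evercode kit (batch 2), which was also used for every other tissue. Per the study's methods, nuclei for 10x were isolated by another protocol and sorted after DAPI staining. The protocol given for Parse used tissue pulverized in liquid nitrogen and Dounce homogenized. The rats were on a normal diet, all tissues were snap frozen, no treatment is named, and the ages are not given in the sources used here. Each tissue and platform had 1 library and no replicate, and the number of animals behind a library is not stated, and the taPVAT homogenate was spun more gently than those of the white tissues, so preparation, platform and tissue cannot be told apart, no difference between tissues was tested, and every interval covers counting error only.

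The PDGF ligands are secreted dimers that act on receptor tyrosine kinases. The alpha receptor binds the A, B and C chains, the beta receptor binds the B and D chains, and the C and D chains need proteolytic release of a CUB domain outside the cell before they can bind. In blood vessels, endothelial cells release the B chain and mural cells (pericytes and smooth muscle) carry the beta receptor, while in adipose tissue the alpha receptor is widely used as a mark of fibroblasts and adipocyte progenitors. Pdgfrl encodes a secreted protein that resembles the outer part of a PDGF receptor and lacks a kinase.

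The libraries held 2297 to 5887 nuclei and 845316 to 16827260 unique molecular identifiers (UMIs, one per captured transcript), with medians of 161 UMIs per nucleus in 10x mesPVAT, 346 in the mesPVAT-labelled Parse library, 213 in the RP-labelled Parse library, 1246 in taPVAT, 1706 in BAT and 3530 in the cow. No barcode was shared between libraries. The brown fat gene Ucp1 stood at 1782 counts per 1000000 UMIs (CPM) in taPVAT and 2072 CPM in BAT. Its level was 63.4 CPM in the mesPVAT-labelled Parse library and 89.9 CPM in the RP-labelled library. In 10x mesPVAT it was 0.81 CPM and in cow WAT 0.65 CPM. The source of the Ucp1 UMIs in the white Parse libraries was not tested. Msln, a gene of the mesothelium that covers the mesentery, stood at 565.6 CPM in 10x mesPVAT but at 13.9 CPM in the mesPVAT-labelled Parse library and 10.7 CPM in the RP-labelled library, and the 2 white Parse libraries are therefore named as labelled throughout. Nuclei were assigned to a cell class when they held UMIs of exactly 1 of 5 anchor genes: Plin1 (the lipid droplet coat protein of adipocytes), Ptprb (an endothelial phosphatase), Dcn (decorin, of stromal cells), Notch3 (of mural cells) and Ptprc (CD45, of immune cells). Of 32 further class markers tested in each of taPVAT, BAT and cow WAT, 32, 32 and 30 were at least 2-fold higher in the nuclei of their own anchor than in the other anchor-only nuclei. Fewer could be tested in the shallow libraries, where the mural markers were past 2-fold in 0 of 1 in 10x mesPVAT, 3 of 4 in the mesPVAT-labelled Parse library and 1 of 3 in the RP-labelled library, and the immune marker in 0 of 1 in the last. The stromal markers were past 2-fold in 6 of 6 in 10x mesPVAT, 3 of 5 in the mesPVAT-labelled Parse library (lowest ratio 0.581) and 3 of 4 in the RP-labelled library. Class levels in the shallow libraries are therefore uncertain. Nuclei with several anchors were left out of the classes, and no doublet caller was run. In the shallow libraries, 84.1% (10x mesPVAT), 61.4% (labelled mesPVAT) and 81.8% (labelled RP fat) of nuclei held no anchor UMI, against 18.4% in taPVAT, 12.2% in BAT and 22.9% in the cow.

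Pdgfra, on chromosome 14 of the rat genome (GRCr8, chr14:33360027-33408604), was the member that differed most between the brown depots. Its UMIs numbered 62 in 10x mesPVAT, 103 in the mesPVAT-labelled Parse library, 92 in the RP-labelled library, 290 in taPVAT, 93 in BAT and 2257 in the cow. Scaled by library, these were 50.1 CPM, 62.2 CPM, 108.8 CPM, 56.9 CPM, 14.7 CPM and 134.1 CPM. Cow WAT and the RP-labelled library stood highest with overlapping intervals, the mesPVAT-labelled Parse library, taPVAT and 10x mesPVAT formed a middle group whose neighbours overlapped, and BAT stood alone at the bottom, with an interval of 11.88 to 18.03 CPM.

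The level of Pdgfra was highest in stromal nuclei of taPVAT and cow WAT. The larger adipocyte class held more of its UMIs in taPVAT (41 Plin1-only against 35 Dcn-only) and BAT (22 against 2). In cow WAT Plin1-only nuclei held 32 and Dcn-only nuclei 252. In taPVAT, Dcn-only nuclei held 504 CPM of Pdgfra (35 UMIs, interval 351 to 701) against 25.15 CPM in the other anchor-only nuclei, a ratio of 20.05. In cow WAT the corresponding levels were 337 CPM (252 UMIs, interval 297 to 381) and 35.3 CPM, a ratio of 9.55. BAT had only 20 Dcn-only nuclei, with 2 Pdgfra UMIs (103 CPM, interval 12.5 to 373). The share of all genes at least 2-fold higher in Dcn-only nuclei was 21.5% in taPVAT, 23.9% in BAT and 6.96% in the cow. At least 1 Pdgfra UMI was seen in 33.3% of Dcn-only nuclei of taPVAT (median 1008 UMIs) and in 53.3% of those of cow WAT (median 3160 UMIs). Immune nuclei, which should lack Pdgfra, were positive in 1.99% of taPVAT (median 705 UMIs) and 9.66% of cow WAT (median 3209 UMIs), so that the stromal shares stood above this background. Dcn was the highest anchor class in 5 of 6 libraries, but its interval overlapped that of the next class in the mesPVAT-labelled Parse library (5 UMIs) and BAT (2 UMIs). The exception was the RP-labelled library, where the class levels rested on 1 UMI in Dcn-only and 2 UMIs in Notch3-only nuclei. With nuclei of several anchors included, Pdgfra in Dcn-positive nuclei was 213 CPM in taPVAT, 65.3 CPM in BAT and 221 CPM in cow WAT.

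Over all nuclei Pdgfra was 3.86-fold higher in taPVAT than in BAT. Within stromal nuclei the size of this difference depended on how they were chosen. Dcn-only nuclei held 504 CPM and 103 CPM, the latter on 2 UMIs, so that these intervals overlapped. When nuclei were assigned by lists of 8 markers per class instead of 1 anchor, stromal nuclei made up 10.8% of taPVAT and 3.82% of BAT, and Pdgfra in them stood at 480 CPM (189 UMIs, interval 414 to 553) and 251 CPM (37 UMIs, interval 177 to 346). The summed level of the 8 stromal markers was 1308 CPM in taPVAT and 532 CPM in BAT, with none of the 8 at 0 in either, and their part in the Pdgfra difference was not tested. In levels summed over a library, fewer nuclei of a type and less RNA per nucleus cannot be told apart.

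**Figure D1:**
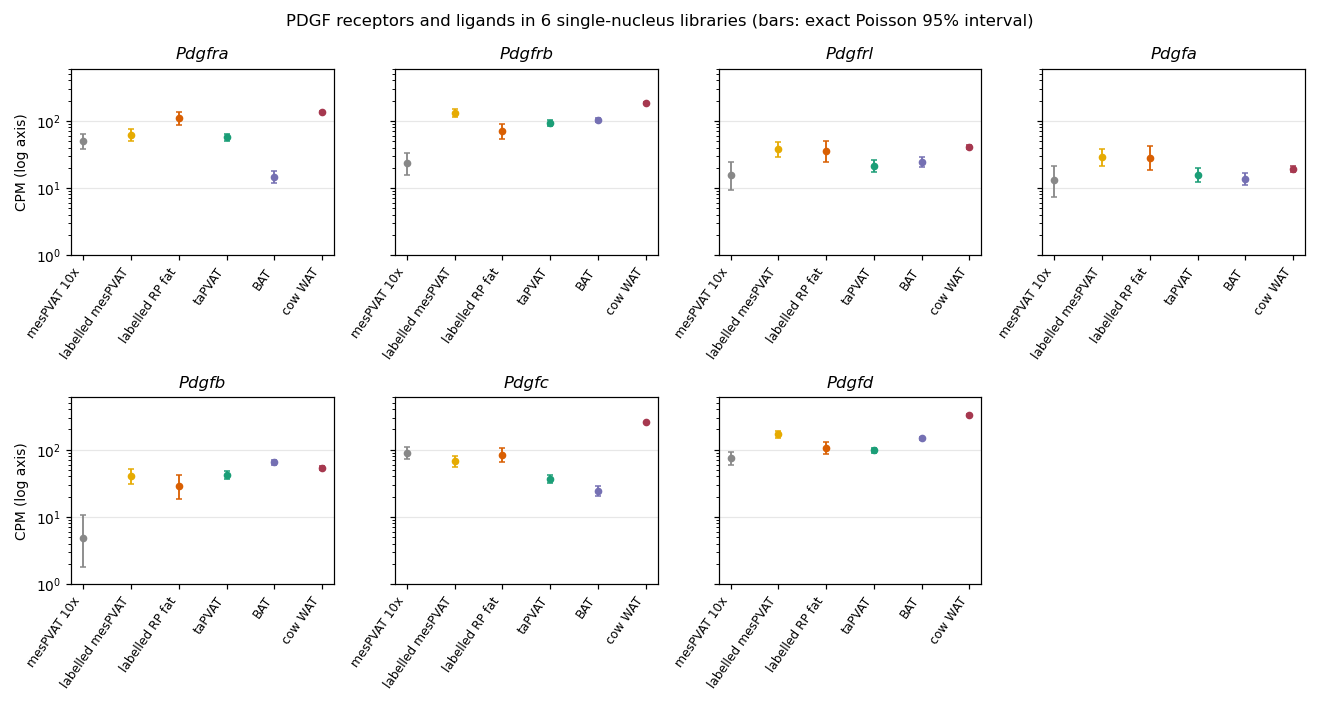
Each panel plots the level of 1 gene in the 6 libraries, in CPM on a log axis, as a point with its exact Poisson 95% interval. Pdgfra is lowest in BAT (14.7 CPM), Pdgfrb and Pdgfb are lowest in 10x mesPVAT (23.4 CPM and 4.85 CPM), and Pdgfc and Pdgfd are highest in cow WAT (255 CPM and 328 CPM).

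Pdgfrb (chr18:56770348-56809228) followed a different order. It was read as 29 UMIs (23.4 CPM) in 10x mesPVAT, 218 UMIs (131.6 CPM) in the mesPVAT-labelled Parse library, 59 UMIs (69.8 CPM) in the RP-labelled library, 474 UMIs (92.9 CPM) in taPVAT, 650 UMIs (102.9 CPM) in BAT and 3061 UMIs (181.9 CPM) in the cow. Cow WAT and then the mesPVAT-labelled Parse library stood clear of the libraries below them. BAT overlapped taPVAT and taPVAT overlapped the RP-labelled library, and BAT (95.1 to 111.1 CPM) stood clear of the RP-labelled library (53.1 to 90.03 CPM). The 10x library stood apart at the bottom, with an interval of 15.7 to 33.7 CPM.

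Pdgfrb was highest in mural nuclei in 4 of 6 libraries. Notch3-only nuclei held 1240 CPM in taPVAT (85 UMIs, interval 991 to 1533), 1453 CPM in BAT (182 UMIs, interval 1250 to 1680), 731 CPM in cow WAT (517 UMIs, interval 669 to 797) and 523 CPM in the mesPVAT-labelled Parse library (16 UMIs), where the interval overlapped that of Dcn-only nuclei. In the RP-labelled library Ptprc-only and Notch3-only nuclei held 2 UMIs each, and in 10x mesPVAT Notch3-only nuclei held 0. With nuclei of several anchors included, the Notch3-positive level was 367 CPM in taPVAT, 520 CPM in BAT and 295 CPM in cow WAT. Against the other anchor-only nuclei, the Notch3-only levels gave ratios of 44.7 in taPVAT, 78.1 in BAT and 8.39 in the cow, where 20.7%, 19.7% and 9.38% of all genes were at least 2-fold higher in the class. A Pdgfrb UMI was seen in 53.7% of Notch3-only nuclei of taPVAT, 69.6% of BAT and 68.9% of cow WAT, at medians of 857, 1158 and 2898 UMIs, against 2.65%, 4.00% and 13.0% of Ptprc-only nuclei at medians of 705, 850 and 3209 UMIs. Pdgfrb was not confined to mural nuclei: Dcn-only nuclei came next, at 231 CPM in taPVAT (16 UMIs), 516 CPM in BAT (10 UMIs) and 265 CPM in the cow (198 UMIs). The BAT value dropped to 216 CPM without 1 nucleus that held 6 of the 10 UMIs. Within the mural class of BAT, nuclei with Myh11 or Acta2, contractile genes of smooth muscle, and nuclei with neither held 1426 CPM and 1530 CPM of Pdgfrb. In cow WAT the same split gave 611 CPM with a contractile gene (249 UMIs) and 895 CPM without (268 UMIs). In taPVAT it gave 1527 CPM with (67 UMIs) and 730 CPM without (18 UMIs), an order that turned when mural nuclei were chosen by marker lists (1076 CPM with and 1716 CPM without). By the lists BAT held 889 CPM with and 1945 CPM without.

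The balance of the receptors differed between libraries. Of the UMIs of Pdgfra and Pdgfrb together, Pdgfra made up 12.5% in BAT (93 of 743, interval 10.2 to 15.1), 38.0% in taPVAT (290 of 764, interval 34.5 to 41.5) and 42.4% in cow WAT (2257 of 5318). Among the white rat libraries it made up 32.1% in the mesPVAT-labelled Parse library, 60.9% in the RP-labelled library and 68.1% in 10x mesPVAT (62 of 91, interval 57.5 to 77.5). The intervals of the 10x and Parse libraries of mesPVAT did not overlap.

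Some stromal nuclei held both receptors, and mural nuclei mostly held Pdgfrb alone. In cow WAT, 48 of 90 Pdgfra-positive Dcn-only nuclei also held Pdgfrb (53.3%, interval 42.5 to 63.9), against 36.7% of the Pdgfra-negative ones, whose median depth was 2512 UMIs rather than 4448 UMIs. In taPVAT, 5 of 18 Pdgfra-positive Dcn-only nuclei held Pdgfrb (27.8%, interval 9.70 to 53.5). Conversely, only 11 of 135 Pdgfrb-positive Notch3-only nuclei of cow WAT held Pdgfra (8.15%), 3 of 36 did so in taPVAT (8.33%) and 2 of 48 in BAT (4.17%). These mural shares were near those of the Pdgfrb-negative nuclei of the class, at 11.5% in cow WAT, 6.45% in taPVAT and 4.76% in BAT.

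Pdgfrl (chr16:58051421-58111327) was low everywhere and showed no common cell class. Its levels were 15.4 CPM in 10x mesPVAT (19 UMIs), 38.0 CPM in the mesPVAT-labelled Parse library (63 UMIs), 35.5 CPM in the RP-labelled library (30 UMIs), 21.4 CPM in taPVAT (109 UMIs), 24.4 CPM in BAT (154 UMIs) and 40.5 CPM in the cow (682 UMIs). With the libraries ranked by level, the interval of each overlapped that of the next. Cow WAT (37.54 to 43.69 CPM) and the mesPVAT-labelled Parse library (29.22 to 48.65 CPM) nevertheless stood clear of taPVAT, BAT and 10x mesPVAT. In BAT, 87 of its UMIs lay in Plin1-only nuclei at 26.9 CPM, 2.70-fold above the other anchor-only nuclei, where 18.6% of all genes were at least 2-fold higher. In cow WAT the highest class was Dcn-only at 92.3 CPM (69 UMIs, 3.78-fold above the other anchor-only nuclei), and in taPVAT Plin1-only nuclei stood at 20.15 CPM against 16.3 CPM in the rest. In both brown depots Notch3-only nuclei stood highest on few UMIs, at 43.8 CPM in taPVAT (3 UMIs) and 31.9 CPM in BAT (4 UMIs). Their intervals overlapped those of the next class.

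**Figure D2:**
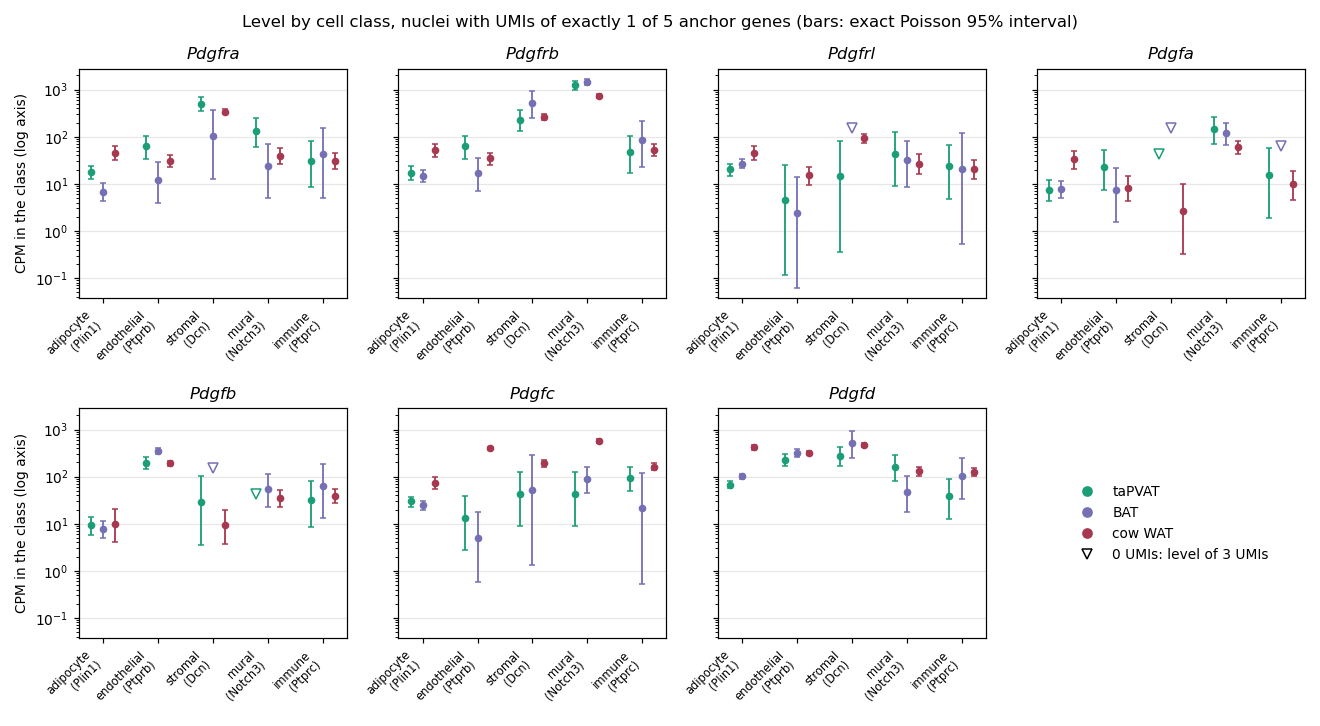
Each panel plots the level of 1 gene, in CPM on a log axis, in the nuclei of taPVAT, BAT and cow WAT that hold UMIs of exactly 1 anchor gene, with exact Poisson 95% intervals. Open triangles mark classes with 0 UMIs at the level of 3 UMIs. Pdgfrb peaks in mural nuclei (731 to 1453 CPM), Pdgfb in endothelial nuclei (191 to 352 CPM) and Pdgfra in stromal nuclei of taPVAT (504 CPM) and cow WAT (337 CPM), while Pdgfc of endothelial nuclei stands at 397 CPM in cow WAT, 13.4 CPM in taPVAT and 4.89 CPM in BAT.

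Among the ligands, Pdgfb (chr7:113419882-113438343) was highest in endothelial nuclei in taPVAT, BAT, cow WAT and 10x mesPVAT, the last on 2 UMIs. It had 6 UMIs in 10x mesPVAT (4.85 CPM), 67 in the mesPVAT-labelled Parse library (40.4 CPM), 24 in the RP-labelled library (28.4 CPM), 213 in taPVAT (41.8 CPM), 409 in BAT (64.7 CPM) and 909 in the cow (54.0 CPM). BAT was highest and 10x mesPVAT lowest, each clear of its neighbour. Cow WAT (interval 50.56 to 57.65 CPM) came second, clear of taPVAT but not of the mesPVAT-labelled Parse library (31.34 to 51.36 CPM). The taPVAT library and both white Parse libraries overlapped one another.

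Ptprb-only nuclei held 197 CPM of Pdgfb in taPVAT (44 UMIs, interval 143 to 264), 352 CPM in BAT (144 UMIs, interval 297 to 414), 191 CPM in cow WAT (277 UMIs, interval 169 to 215) and 110 CPM in the mesPVAT-labelled Parse library (17 UMIs). In that last library Dcn-only nuclei stood at 148.5 CPM on 3 UMIs, and in the RP-labelled library Ptprb-only nuclei held 1 UMI and Ptprc-only nuclei 2. With nuclei of several anchors included, the Ptprb-positive level was 94.05 CPM in taPVAT, 157 CPM in BAT and 78.6 CPM in cow WAT. The ratios of Ptprb-only to the other anchor-only nuclei were 18.6 in taPVAT, 34.4 in BAT and 7.81 in the cow, and 21%, 20% and 7.78% of all genes were at least 2-fold higher in that class. Pdgfb was detected in 15.8%, 25.8% and 41.2% of Ptprb-only nuclei of taPVAT, BAT and cow WAT (medians of 827, 1085 and 3421 UMIs). In Plin1-only nuclei, which should lack it, the shares were 1.61%, 1.52% and 5.41% at the greater or similar medians of 1698, 2044 and 3009 UMIs. With the endothelial nuclei split by arterial genes (Sox17, Gja5 or Efnb2), the Pdgfb intervals overlapped, at 402 CPM with them and 325 CPM in those of no or several vessel types of BAT, 305 CPM and 169.5 CPM in taPVAT, and 204 CPM and 189 CPM in cow WAT.

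Pdgfa (chr12:20759366-20780337), the ligand of the alpha receptor alone as a homodimer, was highest in mural nuclei of taPVAT, BAT and cow WAT. Its levels were 12.9 CPM in 10x mesPVAT (16 UMIs), 29.0 CPM in the mesPVAT-labelled Parse library (48 UMIs), 28.4 CPM in the RP-labelled library (24 UMIs), 15.7 CPM in taPVAT (80 UMIs), 13.6 CPM in BAT (86 UMIs) and 19.1 CPM in the cow (322 UMIs). With the libraries ranked by level every neighbour overlapped. The mesPVAT-labelled Parse library (interval 21.36 to 38.41 CPM) nevertheless stood clear of 10x mesPVAT, taPVAT, BAT and, narrowly, the cow (17.1 to 21.34 CPM). The RP-labelled library stood clear of BAT. Notch3-only nuclei stood at 146 CPM in taPVAT (10 UMIs), 120 CPM in BAT (15 UMIs) and 59.4 CPM in the cow (42 UMIs), which were 16.4, 15.9 and 4.92 times the level of the other anchor-only nuclei. In the cow the interval overlapped that of Plin1-only nuclei (33.05 CPM, 23 UMIs), and with nuclei of several anchors included Plin1-positive nuclei stood at 24.5 CPM and Notch3-positive nuclei at 24.03 CPM. In the 3 white rat libraries other classes were highest, on 1 to 6 UMIs. Of those mural UMIs, 9 of 10 in taPVAT and 14 of 15 in BAT came from nuclei that also held Myh11 or Acta2, at 205 CPM and 151 CPM. In BAT these nuclei held 92584 of the 125263 UMIs of the class. BAT nuclei with neither gene held 30.6 CPM (1 UMI, interval 0.775 to 170.5), which overlapped the interval of those with one (82.7 to 253.7). By marker lists BAT held 72.6 CPM with and 42.8 CPM without, also overlapping. In cow WAT the split gave 61 CPM with and 57 CPM without a contractile gene. Stromal nuclei, which carried its receptor, held 0 Pdgfa UMIs in the 54 Dcn-only nuclei of taPVAT and the 20 of BAT, which allows up to 43.2 CPM and 154.9 CPM, and 2 UMIs in the 169 of cow WAT (2.68 CPM). This depended on the class rule, since stromal nuclei by marker lists held 8 Pdgfa UMIs in taPVAT (20.3 CPM), 3 in BAT (20.4 CPM) and 103 in cow WAT (15.1 CPM).

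The upstream sequences of Pdgfb and Pdgfa are shown because these paralogous ligands were highest in different cell classes of taPVAT, BAT and cow WAT, endothelial and mural. Both are the 250 bases before the annotated start, from the RefSeq promoter table of GRCr8, which held 5 of the 7 members. They lie at chr7:113438344-113438593 on the minus strand and chr12:20759116-20759365 on the plus strand, are given 5′ to 3′, and capitals mark matches to the GC box (GGGCGG) and the CACCC box (CCACCC) on either strand.
Pdgfb: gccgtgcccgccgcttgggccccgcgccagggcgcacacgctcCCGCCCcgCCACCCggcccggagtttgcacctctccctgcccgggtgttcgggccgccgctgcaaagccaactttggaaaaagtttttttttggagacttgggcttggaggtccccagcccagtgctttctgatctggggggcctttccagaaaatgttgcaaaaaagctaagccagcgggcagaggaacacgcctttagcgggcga
Pdgfa: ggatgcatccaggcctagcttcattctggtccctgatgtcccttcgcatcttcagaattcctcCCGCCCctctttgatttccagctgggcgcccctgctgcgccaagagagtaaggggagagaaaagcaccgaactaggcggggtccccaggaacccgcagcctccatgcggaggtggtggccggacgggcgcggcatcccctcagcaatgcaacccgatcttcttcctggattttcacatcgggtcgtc
Both upstream stretches were rich in G and C, at 63.6% for Pdgfb and 60.8% for Pdgfa against a median of 51.2% over 33469 promoters. Each held 1 GC box, found in 30.5% of all promoters, and Pdgfb alone held a CACCC box, found in 26.1%. Neither held the letters TATAAA (in 12.9% of promoters) or GATAAG (in 6.19%). The E-box CANNTG (65.5% of promoters) and the ETS core GGAAG (63.3%) each matched once in Pdgfa and not in Pdgfb. These matches are descriptions of letters and were not linked to the levels by any test.

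Pdgfc (chr2:168613409-168791575) separated the cow from the rat. It was read 111 times in 10x mesPVAT (89.7 CPM), 112 in the mesPVAT-labelled Parse library (67.6 CPM), 71 in the RP-labelled library (84.0 CPM), 188 in taPVAT (36.9 CPM), 153 in BAT (24.2 CPM) and 4295 in the cow (255 CPM). The cow stood clear at the top, the white rat libraries overlapped one another, and taPVAT and then BAT stood clear below them.

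In cow WAT, Pdgfc was highest in Notch3-only nuclei at 574 CPM (406 UMIs) and next in Ptprb-only nuclei at 397 CPM (576 UMIs), with 193 CPM in Dcn-only, 163 CPM in Ptprc-only and 73.3 CPM in Plin1-only nuclei. Among cow Dcn-only nuclei, those with Pi16 or Dpp4, marks of early progenitors, held 388 CPM (64 UMIs, interval 298 to 495), and those with Col15a1 or Cxcl14 held 25.9 CPM (5 UMIs, interval 8.39 to 60.3), with similar median depths of 4142 and 4067 UMIs. Among stromal nuclei by marker lists the gap was smaller, at 276 CPM (149 UMIs) and 145.6 CPM (373 UMIs). Rat Ptprb-only nuclei held 13.4 CPM in taPVAT (3 UMIs), 4.89 CPM in BAT (2 UMIs), 45.4 CPM in the mesPVAT-labelled Parse library (7 UMIs) and 112 CPM in the RP-labelled library (6 UMIs), with 0 UMIs in 10x mesPVAT. In taPVAT the highest class for Pdgfc was Ptprc-only at 93.5 CPM (12 UMIs), 3.21-fold above the other anchor-only nuclei, where 25.2% of all genes were at least 2-fold higher, and all 12 UMIs came from the 61 nuclei that also held the macrophage genes Mrc1, Csf1r or Cd163 (189 CPM, interval 97.6 to 330), with 0 in the other 90. By marker lists, immune nuclei were the highest class for Pdgfc in taPVAT (130 CPM, 25 UMIs), BAT (70.7 CPM, 5 UMIs), the mesPVAT-labelled Parse library (113 CPM, 16 UMIs) and 10x mesPVAT (520 CPM, 17 UMIs), though with intervals that overlapped the next class except in 10x mesPVAT. Ptprc-only nuclei did not show this outside taPVAT, with 1 Pdgfc UMI in BAT, in a nucleus without these macrophage genes, 2 UMIs in the mesPVAT-labelled Parse library (34.0 CPM) and 0 in 10x mesPVAT and the RP-labelled library. Plin1-only nuclei held 68 of the 188 Pdgfc UMIs of taPVAT and 80 of the 153 of BAT, at 29.8 CPM and 24.7 CPM.

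Pdgfd (chr8:11773335-12007277), a ligand of the beta receptor, was read in several classes. It had 92 UMIs in 10x mesPVAT (74.3 CPM), 280 in the mesPVAT-labelled Parse library (169 CPM), 91 in the RP-labelled library (107.7 CPM), 503 in taPVAT (98.6 CPM), 929 in BAT (147 CPM) and 5521 in the cow (328 CPM), with up to 104 UMIs in 1 cow nucleus. Cow WAT stood clear at the top, and BAT overlapped the mesPVAT-labelled Parse library above it and stood clear of the RP-labelled library below.

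Dcn-only nuclei held the highest Pdgfd level in each of the 6 libraries, but the intervals overlapped those of the next class in every library. By marker lists stromal nuclei led in 4 of 6 libraries, and in cow WAT adipocyte nuclei stood above them without overlap (518 CPM against 359 CPM). Those 154 adipocyte nuclei were deep. The 38 with Pdgfra had a median of 35540 UMIs and the rest 5286 UMIs, against 3530 UMIs over the library. Of the 38, 23 also held Pdgfrb, and whether these were single nuclei was not tested. The Dcn-only levels were 274 CPM in taPVAT (19 UMIs), 516 CPM in BAT (10 UMIs) and 468 CPM in the cow (350 UMIs). In taPVAT, 12 of the 19 UMIs came from 1 nucleus, and without it the class stood at 105 CPM, below the 224 CPM of Ptprb-only nuclei (50 UMIs, 29 positive nuclei). Endothelial nuclei stood at 318 CPM in BAT (130 UMIs) and 316.5 CPM in the cow (459 UMIs). Within them, nuclei with arterial genes held 571 CPM of Pdgfd in BAT (interval 458 to 703) and 479 CPM in the cow (interval 426 to 537), against 166.5 CPM (interval 119 to 227) and 220 CPM (interval 185 to 259) in the rest without a single vessel type. The taPVAT values, 305 CPM and 209 CPM, overlapped. Venous nuclei of cow WAT, with Ackr1, Nr2f2 or Selp, held 54.9 CPM (7 UMIs, interval 22.1 to 113) among Ptprb-only nuclei and 200.4 CPM (104 UMIs, interval 164 to 243) by marker lists. Plin1-only nuclei held 67.9 CPM of Pdgfd in taPVAT, 101 CPM in BAT, 75.3 CPM in the RP-labelled library (6 UMIs), 111 CPM in 10x mesPVAT (21 UMIs), 172 CPM in the mesPVAT-labelled Parse library (63 UMIs) and 417 CPM in cow WAT, where species, depot and site cannot be told apart. In both brown depots, Plin1-only nuclei without a Ucp1 UMI held more Pdgfd than those with one, 151 CPM (interval 108 to 204.5) against 56.7 CPM (interval 46.8 to 68.1) in taPVAT and 205 CPM (interval 154 to 267) against 91.6 CPM (interval 81.0 to 103) in BAT. This was not particular to Pdgfd. In BAT, without overlap, Pdgfra stood at 34.1 CPM without Ucp1 and 4.38 CPM with it, Pdgfrb at 45.5 CPM and 12.1 CPM, and Pdgfrl at 72.0 CPM and 22.9 CPM. Pdgfb and Pdgfc were higher with overlapping intervals, and Pdgfa was not higher (7.58 CPM and 7.75 CPM). The nuclei without Ucp1 were shallower, with medians of 902.5 UMIs against 2043 UMIs in taPVAT and 962 UMIs against 2242 UMIs in BAT. The part of depth and of other cell types in these differences was not tested.

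**Figure D3:**
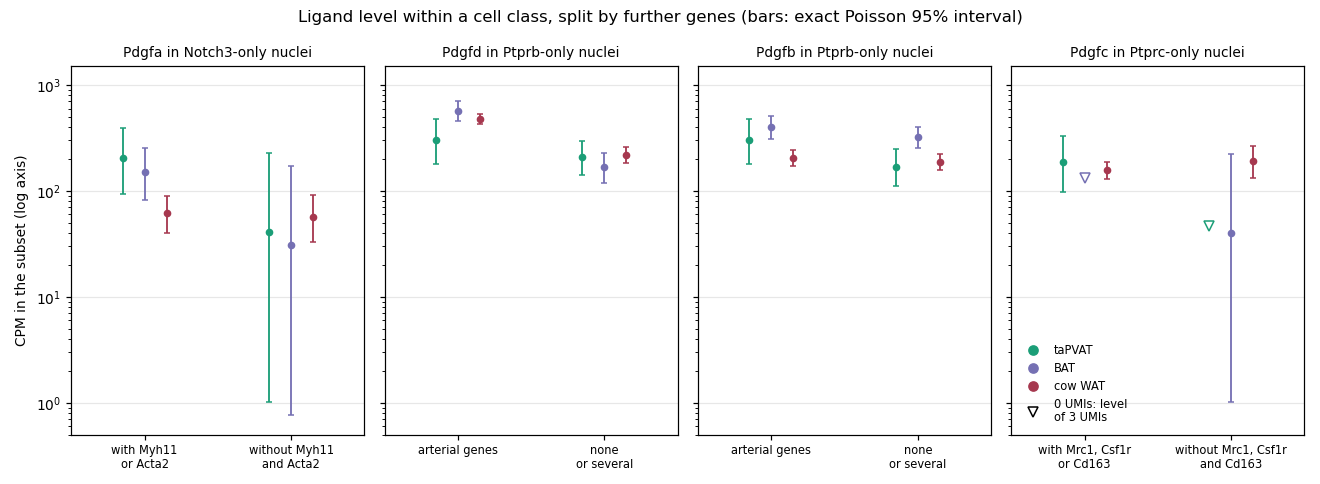
Each panel plots 1 ligand within 1 anchor-only class, split by further genes named under the axis, in CPM on a log axis with exact Poisson 95% intervals, and open triangles mark 0 UMIs at the level of 3 UMIs. Pdgfd is higher in arterial-gene nuclei than in endothelial nuclei of no or several vessel types in BAT (571 CPM against 166.5 CPM). The same holds in cow WAT (479 CPM against 220 CPM), while its intervals overlap in taPVAT. The Pdgfb intervals overlap by the same split in each tissue. Among Ptprc-only nuclei of taPVAT, Pdgfc was read in those with macrophage genes (189 CPM) and at 0 UMIs in the rest.

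The ligands' UMIs divided differently between libraries. Pdgfb made up 25.9% of the ligand UMIs in BAT (409 of 1577, interval 23.8 to 28.2), 21.7% in taPVAT (213 of 984), 13.2% in the mesPVAT-labelled Parse library, 11.4% in the RP-labelled library, 8.23% in cow WAT (909 of 11047) and 2.67% in 10x mesPVAT (6 of 225). Pdgfc made up 9.70% in BAT, 19.1% in taPVAT, 22.1% and 33.8% in the mesPVAT-labelled and RP-labelled Parse libraries, 38.9% in cow WAT and 49.3% in 10x mesPVAT. Pdgfd made up 58.9% in BAT, 51.1% in taPVAT, 55.2% and 43.3% in the mesPVAT-labelled and RP-labelled Parse libraries. It made up 49.98% in cow WAT and 40.9% in 10x mesPVAT. These shares were read across libraries, and levels of different ligands were compared per gene length. Divided by the span of the gene in kilobases (18.5 kb for Pdgfb, 21.0 kb for Pdgfa, 178 kb for Pdgfc and 234 kb for Pdgfd), the level in BAT was 3.51 CPM per kb for Pdgfb, 0.649 for Pdgfa, 0.136 for Pdgfc and 0.629 for Pdgfd. In taPVAT the same quantity was 2.26 CPM per kb for Pdgfb, 0.748 for Pdgfa, 0.207 for Pdgfc and 0.422 for Pdgfd. On this scale, Pdgfb led the ligands in all 4 rat Parse libraries, although Pdgfd held the largest share of the undivided UMIs in each of them. Pdgfrb stood at 2.65 CPM per kb in BAT and 2.39 in taPVAT, and Pdgfra at 0.303 in BAT and 1.17 in taPVAT. In the RP-labelled library Pdgfb and Pdgfa had 24 UMIs each, so their order there came from gene span alone. The scale assumes that counts rise with gene span, which was not tested, and whether intronic reads were counted is not known.

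Many positive nuclei of taPVAT, BAT and cow WAT held several anchors or none and so belong to no class. For Pdgfb, 36 of 159 positive nuclei in taPVAT, 81 of 250 in BAT and 134 of 466 in the cow held Ptprb alone, and 74, 118 and 227 held several anchors. For Pdgfrb, 36 of 247 in taPVAT, 48 of 232 in BAT and 135 of 811 in the cow held Notch3 alone. Of all nuclei of taPVAT, BAT and cow WAT, 8.42%, 11.6% and 14.15% held Ptprb alone and 2.47%, 2.56% and 8.53% Notch3 alone. Several anchors were held by 22.0%, 19.7% and 33.2%. Pdgfd-positive nuclei of BAT were most often Plin1-only (222 of 503), a class of 1386 of the 2699 nuclei in which its level, 101 CPM, was lower than in all classes but Notch3-only. In 10x mesPVAT, 35 of 51 Pdgfra-positive and 84 of 99 Pdgfc-positive nuclei held no anchor, beside 84.1% of all its nuclei.

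**Figure D4:**
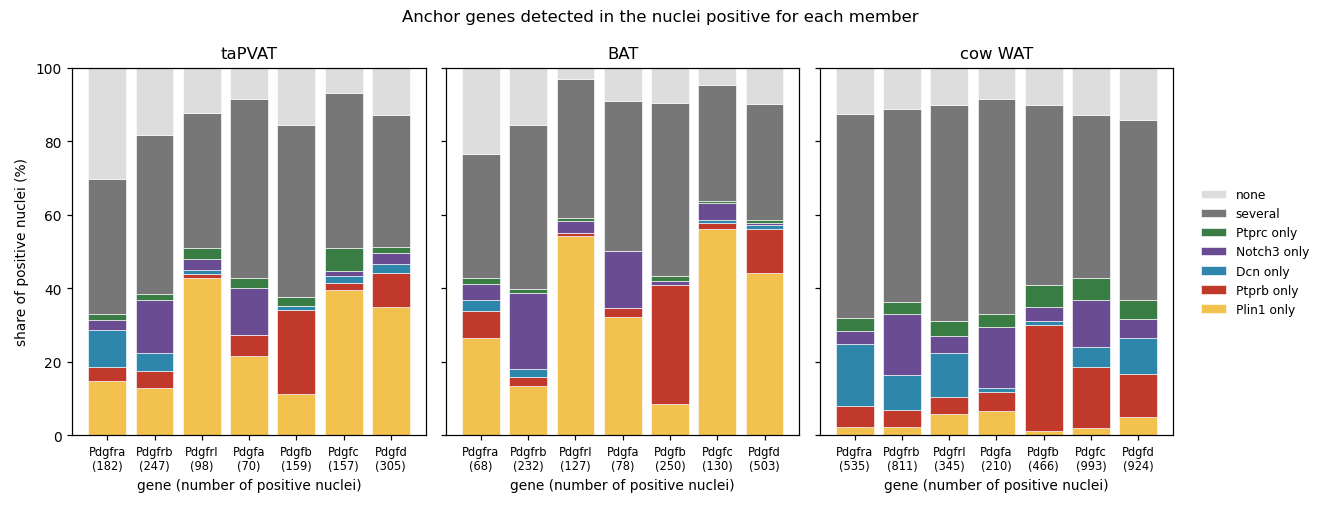
Stacked bars give, for each member and each of taPVAT, BAT and cow WAT, the share of positive nuclei (%) by the anchor genes they held, with the number of positive nuclei under each bar. Nuclei with several anchors form a large part of every bar, Ptprb-only nuclei are most prominent for Pdgfb (81 of 250 in BAT) and Notch3-only nuclei for Pdgfrb (48 of 232 in BAT).

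Shares of positive nuclei depend on depth. Unthinned, Pdgfd was detected in 11.3% of nuclei of taPVAT, 18.6% of BAT and 40.2% of cow WAT. After thinning each nucleus to 200 UMIs, which left out 3788 nuclei of 10x mesPVAT, 476 of the mesPVAT-labelled Parse library, 1302 of the RP-labelled library and 0 of the others, the shares were 2.22%, 3.11% and 4.70%. Pdgfc went from 43.2% to 5.31% in cow WAT, which was still above 1.46% in the RP-labelled library (2.50% unthinned), 1.29% in 10x mesPVAT (1.68%) and 0.519% in BAT (4.82%). Pdgfra went from 23.3% to 1.83% in cow WAT, from 2.92% to 1.60% in the RP-labelled library and from 2.52% to 0.482% in BAT. Pdgfa remained under 0.6% in every library after thinning.

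Between Parse libraries, few members passed a 2-fold difference, read against the share of all genes with at least 20 UMIs that did so. In taPVAT against BAT, 1 of 7 members passed, Pdgfra at 3.86-fold higher, where 7.1% of 18640 genes passed in either direction, 6% as higher and 1.09% as lower. The others lay between 0.645 for Pdgfb and 1.52 for Pdgfc. In the mesPVAT-labelled Parse library against the RP-labelled library, 0 of 7 passed (15.6% of all genes, 5.84% higher and 9.79% lower), with Pdgfrb at 1.89 and Pdgfra at 0.571 as the extremes. In both brown against both white rat Parse libraries, with each pair required to lie wholly past the other, 0 of 7 passed (53% of genes, 5.51% higher and 47.5% lower in brown). The nearest was Pdgfc, whose lowest white level, 67.6 CPM, stood 1.83-fold above its highest brown level, 36.9 CPM. In both perivascular against both non-perivascular libraries 0 of 7 passed (0.163% of genes, 0.121% higher and 0.0417% lower).

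Cow WAT against both white rat Parse libraries gave 1 of 7, Pdgfc at 3.04-fold above the higher of the rat pair (39.4% of 14017 genes passed, 11.2% as higher and 28.2% as lower in cow), with Pdgfd next at 1.94-fold. Matching was by symbol across annotations, and species and tissue site cannot be told apart. In 10x mesPVAT against the mesPVAT-labelled Parse library, 5 of 7 passed, all lower in 10x: Pdgfb at 0.120, Pdgfrb at 0.178, Pdgfrl at 0.404, Pdgfd at 0.440 and Pdgfa at 0.446, where 55.2% of 12067 genes passed, 22.8% as higher and 32.4% as lower. Pdgfra (0.806) and Pdgfc (1.33) did not pass. Beside this, the summed endothelial markers were 697 CPM in 10x and 1242 CPM in Parse, the mesothelial markers 923 CPM and 98.4 CPM, and the mural markers 2200 CPM and 1094 CPM, with none of the 8 endothelial or 8 mural markers at 0. The highest mural gene alone made up 2064 CPM of the 10x sum and 555.9 CPM of the Parse sum. The mural anchor Notch3 stood at 37.2 CPM in 10x and 99.0 CPM in Parse, so the sum is no measure of mural content. Kit, nuclei isolation and sorting, genome annotation and the identity of the tissue cannot be told apart here.

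The rest of the pathway was followed over 65 genes for ligand processing, binding partners, adapters, inhibitors, related receptors and early response. In taPVAT against BAT, 3 of 64 tested genes (4.69%) were past 2-fold, where 7.1% of all genes were, and all 3 were higher: Pcsk6, a convertase that cleaves growth factor precursors (2.38), Csf1r, the macrophage colony-stimulating factor receptor (2.21), and Flt3, a receptor of dendritic cell precursors (2.25). The median ratio over the 64 genes was 1.03. The immune marker sum, which includes Csf1r itself, was 508 CPM in taPVAT and 193 CPM in BAT, with none of the 7 immune markers in the file at 0. The immune anchor Ptprc alone stood at 151 CPM and 49.9 CPM. In the mesPVAT-labelled Parse library against the RP-labelled library, 3 of 62 were higher, beside 5.84% of all genes, and 2 lower, beside 9.79%. The higher genes were led by Map2k2, a MAP kinase kinase (2.92). The lower ones were the early response genes Fos (0.158) and Egr1 (0.404). Together they were 8.06% beside 15.6% of all genes. In brown against white, 9 of 64 were higher, beside 5.51% of all genes, and 6 lower, beside 47.5%. Akt2, the insulin-responsive kinase, came first (4.39), then Nrp1, a co-receptor (3.35). Flt3 stood at the far end, its lowest white level 4.15 times its highest brown level. Together the 15 genes were 23.4% beside 53% of all genes. In cow against rat white fat, 15 of 64 were higher, beside 11.2% of all genes, and 5 lower, beside 28.2%. The higher genes were led by Spry1, a feedback inhibitor of receptor kinases (4.71). Among the lower ones, the lower rat level of Prkca, protein kinase C alpha, was 18.7 times the cow level. Together they were 31.25% beside 39.4% of all genes. None of 64 passed in perivascular against non-perivascular, where 0.163% of all genes did. In 10x against Parse mesPVAT 25 of 60 were higher, beside 22.8% of all genes, and 5 lower, beside 32.4%. Together they were 50% beside 55.2% of all genes. Egr1 stood at 77.2, Dusp6, a MAP kinase phosphatase, at 37.9 and Pik3r1, the regulatory subunit of phosphoinositide 3-kinase, at 19.5.

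Within tissues, pathway genes at least 2-fold higher in a class were counted beside the share over all genes, and nothing is read from the counts about the pathway as a whole. The genes named passed in all 3 tissues and were picked after their values were seen. In Notch3-only nuclei, 14 of 61 tested pathway genes were at least 2-fold higher in taPVAT, 15 of 60 in BAT and 4 of 63 in the cow, which were 23.0%, 25% and 6.35% beside 20.7%, 19.7% and 9.38% of all genes. Cspg4, the NG2 proteoglycan of pericytes that binds PDGF-AA, was among them in all 3 tissues (5.68, 8.004 and 8.13), as was Src, a kinase recruited to the receptors (12.5, 13.5 and 3.09). In Ptprb-only nuclei the counts were 16 of 61, 23 of 60 and 6 of 63 (21%, 20% and 7.78% of all genes). Plat, tissue plasminogen activator, which can cleave the C chain, was 8.79, 22.4 and 2.49 times higher there in taPVAT, BAT and cow WAT. In Dcn-only nuclei, 15 of 61, 19 of 60 and 8 of 63 passed, beside 21.5%, 23.9% and 6.96% of all genes. Fyn, a kinase of the Src family, was 5.10, 4.86 and 2.83 times higher there and Egr1 5.71, 7.73 and 5.27 times. The Dcn-only class of BAT held 20 nuclei and 19365 UMIs, where 1 UMI is 51.6 CPM. Its ratios and its share of all genes can therefore rest on few UMIs. Ptprc-only nuclei had 20 of 61, 17 of 60 and 11 of 63 (25.2%, 28.9% and 14.6% of all genes), and Plin1-only nuclei 6 of 61, 10 of 60 and 5 of 63 (14.7%, 18.6% and 10.8%).

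The genes whose levels were most like each member were found over 15 points, the 5 anchor-only classes of taPVAT, BAT and cow WAT, among 3734 genes with at least 100 UMIs in each of these libraries. The points share 3 libraries and their depth, and Pearson's r of log2(CPM + 10) is given as a description. For Pdgfra they were Fbn1 (0.91), Abi3bp (0.88), Col1a1 (0.88), Lama2 (0.87) and Sdk1 (0.86), of which Fbn1 and Col1a1 are in the stromal list. For Pdgfrb they were Abcc9 (0.96), Arhgap42 (0.96), Cacna1c (0.94), Daam2 (0.92) and Irag1 (0.91), with Abcc9 in the mural list, and for Pdgfa Myh11 (0.89), Notch3 (0.88), Pde8b (0.84), Ano1 (0.83) and Akap6 (0.79). Myh11 is in the mural list. Notch3 is the anchor of the mural points and is absent from the others by the class rule, so its place here adds no support. Pdgfb was nearest to Ccdc85a, Rapgef3 and Prag1 (0.92 each), Garre1 and Fryl (0.91 each). The other members had weaker neighbours, led by Sesn3 for Pdgfrl (0.88), Usp3 for Pdgfc (0.83) and Lamb1 for Pdgfd (0.86).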

How the data were processed

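Single-nucleus RNA-seq was analysed from 6 libraries, 1 per tissue and platform. Per the labels and the study's methods, the authors aligned Parse reads with split-pipe v1.5.1 to GRCr8 or ARS-UCD1.3, with 2 sublibraries per library, and the 10x reads with Cell Ranger 7.1.0 (Rnor_6.0 is named in the methods). The deposited values are UMI counts per gene and nucleus, not normalized, and whether intronic reads were counted is not given in the sources used here. The depth was 845316 to 16827260 UMIs per library.

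UMIs were summed over all deposited nuclei and divided by the library total (CPM), with exact Poisson 95% intervals, and shares of nuclei have exact binomial (Clopper-Pearson) intervals. A UMI count of 0 allows up to 3. With 1 library per group no test was made. Genes with at least 20 UMIs over the sides compared were called at 2-fold, and sets of libraries were compared by the lowest of one against the highest of the other. Anchor genes, marker lists, 65 pathway genes and the 5 most alike genes per member follow fixed rules, but the members and lists were chosen with earlier results of these data known. Alternatives were a 1.5-fold and a 3-fold threshold, the study's nucleus filters, a 500 UMI minimum, another denominator, other class rules, thinning and single sublibraries. Scripts were tested on simulated data. Python 3.11.15, numpy 2.4.6, scipy 1.17.1, pandas 2.3.3 and matplotlib 3.10.9 were used.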

Additional observations from a re-analysis of the deposited data

How the results depend on the processing

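The number of members past the threshold changed with the threshold. At 1.5-fold, 3 members passed in taPVAT against BAT (1 at 2-fold), 3 in the library labelled mesPVAT against the library labelled RP fat (0), 2 in brown against white (0) and 2 in cow against white rat (1). At 3-fold, 2 passed in 10x against Parse mesPVAT (5 at 2-fold). With the threshold kept at 2-fold, 3 passed in that comparison in nuclei of at least 500 UMIs. The study's nucleus filters gave 1 in brown against white, and leaving the most abundant gene out of the denominator gave 2 in cow against white rat. The shares of all genes past these other settings are not given here, so nothing is read from the changed counts about the members. With classes set by marker lists, Notch3 was the highest class for Pdgfa in 5 libraries instead of 3 and for Pdgfc in 1 instead of 3. Without the nucleus highest in each class, an alternative chosen after seeing the data, Ptprc was highest for Pdgfrl in 1 library instead of 2. Ptprc did not lead for Pdgfrl, since Notch3 and Dcn were also highest in 2 libraries each. It was taken as the class of Pdgfrl in these counts only for its median level. In 10x mesPVAT, Ptprc-only nuclei held 1 Pdgfrl UMI in 1 nucleus (51.7 CPM), and so 0 without it. In the mesPVAT-labelled Parse library they held 3 UMIs. The cause of the other changes was not tested. Levels in the class that most often stood highest moved by over 1.5 times in 24 of 42 values when nuclei with several anchors were included, 16 of 42 by marker lists, 4 of 42 under the study's filters, and 14 and 12 of 35 with single sublibraries. Thinning to 200 UMIs moved 38 of 42 shares of positive nuclei beyond their intervals. No paired analysis was possible because each group had 1 library. Class levels in the white rat libraries rest on few UMIs, and no interval covers the spread between animals.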
